A study of Mus musculus with 9 samples.

Results

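RNA of 9 genes of the red blood cell was followed through 9 RNA-seq libraries of the embryonic mouse cortex. The genes were chosen by name: the embryonic globins Hba-x, Hbb-y and Hbb-bh1, the definitive (adult) globins Hba-a1, Hba-a2, Hbb-bs and Hbb-bt, and the erythroid genes Alas2 and Slc4a1. They are 9 of the 35498 genes in the tables, and all 9 were among the 15773 genes with enough counts to be tested. The tissue was dissected from C57Bl/6 embryos at E13.5, around the middle of gestation, in 3 groups of 3 libraries. The first was Smarca1 +/+ without Cre (WT), the next Smarca1 -/- without Cre (Smarca1 KO), and the last Smarca1 -/- with Cre +/- (DKO), which the design text of the series calls a knockout of both Smarca5 and Smarca1. Smarca1 and Smarca5 encode the ATPases of ISWI chromatin remodelling complexes. DKO and Smarca1 KO thus share the Smarca1 genotype, and DKO differs from both other groups in carrying a Cre allele. Neither the driver of the Cre and the deleted exons nor the Smarca5 alleles of WT and Smarca1 KO are stated in the labels or the design text. The labels do not say whether replicates are separate embryos, so every p-value measures the spread between these libraries, which may be technical.

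Red cells are carried to the cortex by its vessels, so their RNA marks the blood in the piece of tissue. Haemoglobin joins alpha-like chains, encoded by Hba genes, to beta-like chains, encoded by Hbb genes. In the mouse, primitive red cells made in the yolk sac carry the embryonic chains, the zeta chain of Hba-x with the epsilon-y and beta-h1 chains of Hbb-y and Hbb-bh1, and also adult alpha chains. Definitive red cells from the fetal liver, which join them in the blood from mid-gestation, carry adult alpha and adult beta chains. The ratio of embryonic to definitive globin RNA within a library therefore describes the make-up of its blood RNA apart from how much blood RNA the library holds. In bulk tissue, fewer red cells and less RNA per cell cannot be told apart.

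The libraries held 27466046 to 46007527 counts summed over genes, of which the 7 globins took 0.0872% to 0.1852%. Smarca5 RNA was 77.2 to 84.4 CPM (counts scaled to library size) in DKO, 212.2 to 245.8 CPM in Smarca1 KO and 262 to 270.7 CPM in WT, which is in the direction of the DKO label. Smarca1 RNA was 35.3 to 43.8 CPM over the 9 libraries and does not check the Smarca1 labels. Y-linked genes summed to 175 to 189 TPM (a level corrected for transcript length) in every library.

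In mean TPM over the 9 libraries, Hba-a1 stood at 1636 TPM and ranked 58 among the 35498 genes. It was followed by the major adult beta gene Hbb-bs (1335 TPM, rank 84), Hba-a2 (1116 TPM, rank 117) and Hbb-y (1041 TPM, rank 126). The ranges of these 4 genes over the libraries overlapped, so their order does not exceed their spread. Hbb-bt, the other adult beta gene, averaged 289.6 TPM (rank 484), and its highest library (427.9 TPM) passed the lowest of Hbb-y (372.6 TPM). Hba-x averaged 94.5 TPM (rank 2044) and lay below Hbb-bt in every library, and Hbb-bh1 averaged 12.6 TPM (rank 9257) on 23 to 166 counts per library. Alas2, the erythroid form of the first enzyme of haem synthesis, averaged 8.87 TPM (rank 10209), with a range that overlapped that of Hbb-bh1. Slc4a1, the band 3 anion exchanger of the red cell membrane, averaged 1.70 TPM (rank 13309) on 46 to 196 counts and lay below Alas2 in every library.

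**Figure D1:**
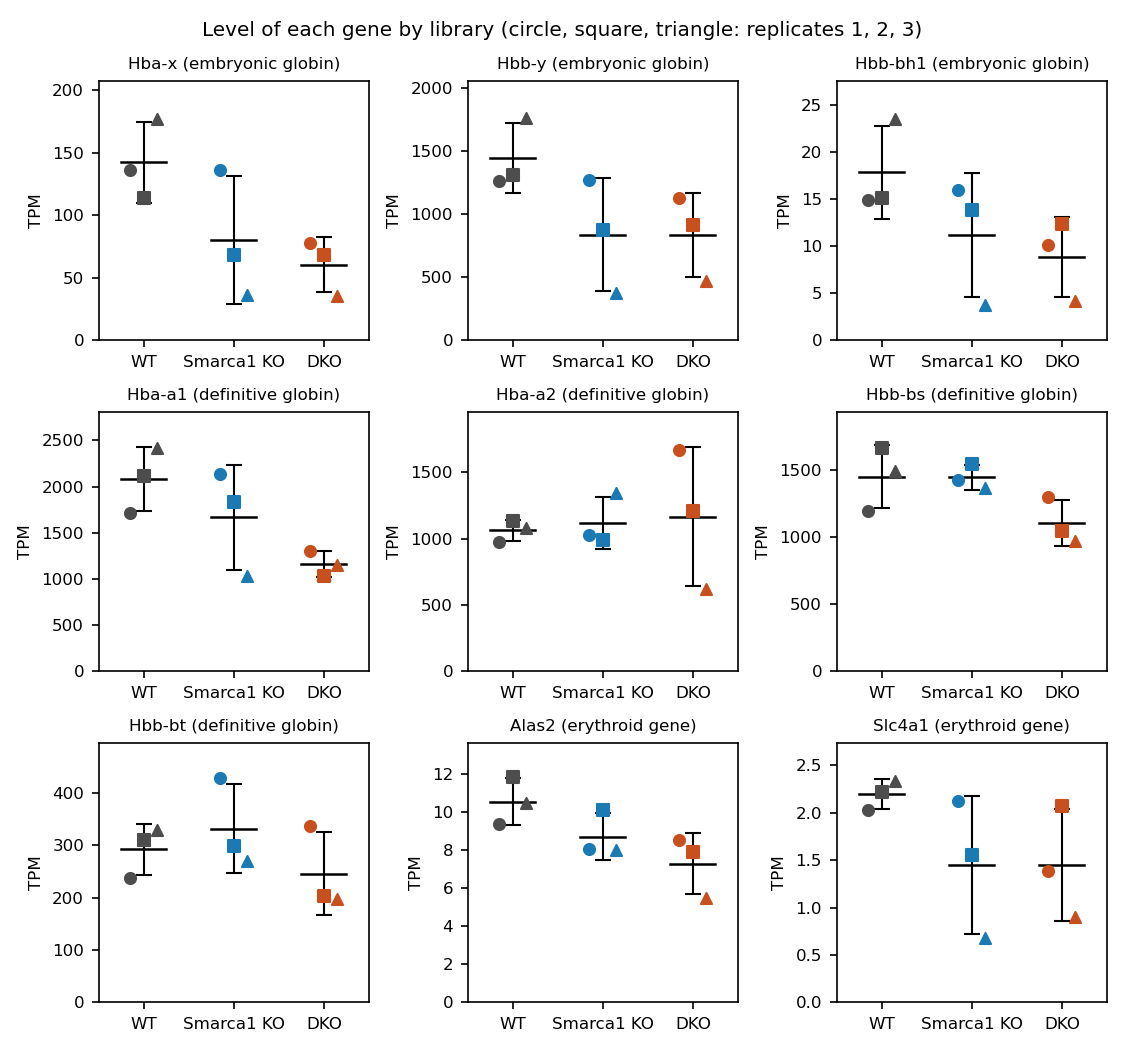
Level of each of the 9 genes in TPM (y axis, from 0) by group (x axis); each marker is 1 library (circle, square and triangle are replicates 1, 2 and 3), the horizontal line is the mean of the 3 libraries and the bar is ± 1 SD. The 3 embryonic globins share a pattern in which replicate 3 of both Smarca1 KO and DKO is low and replicate 3 of WT is high, while Hba-a2 is highest in DKO replicate 1 (1668 TPM) and lowest in DKO replicate 3 (623.3 TPM).

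The adult genes come in near-identical pairs, which bears on every value given for a single copy. The coding sequences of Hba-a1 and Hba-a2 (GENCODE M21 transcripts) have 429 bases each and differ at 1 of them, C381T, counted from 1 at the A of the start codon and written from Hba-a1 to Hba-a2. Those of Hbb-bs and Hbb-bt have 444 bases each and likewise differ at 1, C417T, from Hbb-bs to Hbb-bt. Neither change alters the protein. The bases around each difference are shown because they are all that a read inside the coding sequence has to tell the copies apart, and the capital marks the base that differs.
Hba-a1: catgcctctctggaCaaattccttgcctc
Hba-a2: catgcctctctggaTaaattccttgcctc
Hbb-bs: gtggctggagtggcCgctgccctggctca
Hbb-bt: gtggctggagtggcTgctgccctggctca
Of the 31-base words in the transcripts of each gene, 75.5% of those of Hba-a1 and 92.6% of those of Hba-a2 also occur in another gene, the other copy or Hba-ps4. The share was 54.4% for Hbb-bs and 59.4% for Hbb-bt, each with the other. It was 0 for Hba-x, Hbb-y, Hbb-bh1 and Slc4a1, whose counts do not depend on such a division. The coding sequence of Hba-x is 64.1% identical to that of Hba-a1, and Hbb-y is 74.3% and Hbb-bh1 74.6% identical to Hbb-bs. For Alas2 the share was 11.8%, all of it with Apex2, which overlaps its end on the opposite strand over 311 exon bases (chrX:150570328-150570638, GRCm38). No source says whether the counting used strand, so reads of Alas2 and Apex2 there cannot be told apart. Values for 1 adult copy are therefore uncertain, and sums over each pair are given beside them.

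The alpha-like genes lie together on chromosome 11 (GRCm38), with Hba-x at chr11:32276400-32278116, Hba-a1 at chr11:32283511-32284465 and Hba-a2 at chr11:32296489-32297298, all on the plus strand. The beta-like genes lie together on chromosome 7 on the minus strand, with Hbb-y at chr7:103851749-103853216, Hbb-bh1 at chr7:103841637-103843164, Hbb-bs at chr7:103826534-103828096 and Hbb-bt at chr7:103812524-103813996. Alas2 is at chrX:150547375-150570638 on the plus strand and Slc4a1 at chr11:102348824-102366203 on the minus strand. In erythroid cells these genes are regulated by GATA1 and by KLF1, which are known to bind sites with the cores GATAA and CACCC, respectively. RefSeq promoters (GRCm38.p6) were matched for 7 of the 9 genes, all except Hbb-bh1 and Slc4a1. Within 250 bases upstream of the RefSeq start, with each motif read on both strands, CACCC occurred in 7 of the 7, against 52% of 32851 promoters, and GATAA in 7 of the 7, against 22.6%. TATAA occurred in 6 of the 7, against 22.8%, and CCAAT in 5 of the 7, against 33.8%. TATAA and GATAA can share bases. The upstream bases of Hba-a1 and Hba-a2 were identical at 247 of 253 aligned columns, so the 7 promoters are not 7 separate cases. A match is a stretch of letters and no measured binding. The RefSeq starts do not all coincide with the ends of the gene coordinates. For Hba-x, Hba-a1, Hbb-bs and Alas2, a CACCC upstream of the RefSeq start lies inside the gene coordinates. For Hbb-bt, the 30 bases around a CACCC reach into the gene coordinates. Upstream therefore refers to the RefSeq start only. The 30 bases around 1 CACCC of each promoter are shown, with the motif in capitals, because embryonic and definitive genes of both loci carry it and the adult alpha copies carry it in identical surroundings.
Hba-x, chr11:32276493-32276522, plus strand, motif 95 bases before the start: gataacaggctcCACCCtgcaagccccctc
Hba-a1, chr11:32283600-32283629, plus strand, motif 60 bases before the start: caagggcgtgtcCACCCtgcctggaggaca
Hba-a2, chr11:32296417-32296446, plus strand, motif 63 bases before the start: caagggcgtgtcCACCCtgcctggaggaca
Hbb-y, chr7:103853301-103853330, minus strand, motif 111 bases before the start: atgacctggctcCACCCatgaggaccacgg
Hbb-bs, chr7:103828001-103828030, minus strand, motif 90 bases before the start: tccgtagagccaCACCCtggtaagggccaa
Hbb-bt, chr7:103813995-103814024, minus strand, motif 89 bases before the start: cctgcagggtaaCACCCtggcattggccaa
Alas2, chrX:150547375-150547404, plus strand, motif 30 bases before the start, as its reverse complement: gggggtggggtgGGGTGggcggggctgagc

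The embryonic globins were lower in every DKO library than in every WT library, by about 1.7-fold to 2.4-fold in the fit (1.71 for Hbb-y, 2.01 for Hbb-bh1 and 2.35 for Hba-x), but none passed the test. Of the 9 genes, 1 was called in DKO against WT, the adult alpha gene Hba-a1, which fell 1.78-fold (edgeR's quasi-likelihood test, adjusted p under 0.05 over all genes tested). At the same threshold 12% of all genes were called, 6.35% as lower, so 1 of 9 is near the background. At an unadjusted p under 0.05 there were 4 of the 9, against 31% of all genes. The fold change was negative for 8 of the 9, against 48.3% of all genes. The median log2 fold change was −0.60, against 0.008 over all genes. For 5 of the 9 (Hba-a1, Hba-x, Hbb-y, Hbb-bh1 and Alas2) the groups did not overlap, all lower in DKO, against 20.4% of all genes. The 9 genes are read from the same libraries and their RNA marks the same blood. Counts of the 9, here and in the other comparisons, are therefore not 9 separate observations.

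Hba-x was 46.6, 39.3 and 60.8 CPM in WT replicates 1 to 3, and 27.1, 23.5 and 12.2 CPM in DKO. Every DKO library was below every WT library, and replicate 3 of DKO was the lowest of all 9 libraries, level with replicate 3 of Smarca1 KO. The log2 fold change of DKO against WT was −1.23 (SE 0.429, edgeR adjusted p = 0.0867). Hbb-y was 301.2, 318.4 and 427.8 CPM in WT, and 276.8, 221.5 and 114.6 CPM in DKO. The groups did not overlap, but DKO replicate 1 was close to WT replicate 1 (log2 fold change −0.77, SE 0.413, edgeR adjusted p = 0.2335). Hbb-bh1, which in primitive red cells gives way to Hbb-y as they mature, was 3.38, 3.47 and 5.43 CPM in WT and 2.37, 2.85 and 0.958 CPM in DKO. These groups did not overlap either (log2 fold change −1.01, SE 0.506, edgeR adjusted p = 0.2078).

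Hba-a1 was 482.8, 600.3 and 688.3 CPM in WT and 376.8, 289.6 and 327 CPM in DKO. The highest DKO library was below the lowest WT library, and the log2 fold change was −0.83 (SE 0.238, edgeR adjusted p = 0.0498). The call lay at the threshold: it was lost with offsets for effective length (adjusted p = 0.0549), and without any 1 of Smarca1 KO replicate 2, the 3 DKO replicates and the 3 WT replicates (adjusted p from 0.0552 to 0.1547). Hba-a2, its near-identical neighbour, was 193.6, 227.4 and 218.9 CPM in WT and 342.1, 242.5 and 125.8 CPM in DKO. DKO held both the highest and the lowest of all 9 values, and the log2 fold change was 0.15 (SE 0.282, edgeR adjusted p = 0.757). Without DKO replicate 1 it was −0.21 (SE 0.237). The sum of the pair was 676.5, 827.6 and 907.2 CPM in WT and 718.9, 532.2 and 452.7 CPM in DKO. For the sum the groups overlapped and the test was not passed (log2 fold change −0.50, SE 0.184, edgeR adjusted p = 0.1003), so the fall of Hba-a1 was not matched by a called fall of adult alpha RNA as a whole.

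Hba-a2 made up 36.1%, 34.9% and 30.96% of the adult alpha TPM in WT replicates 1 to 3, and 32.5%, 35.1% and 56.6% in Smarca1 KO. In DKO its share was 56.1%, 54.0% and 35.2%. Smarca1 KO replicate 3 and DKO replicates 1 and 2 thus had a share above 50%, while the other 6 libraries lay between 30.96% and 36.1%. Both mutant groups hold libraries of either kind. For the adult beta pair, Hbb-bt made up 15.7% to 18.02% of the TPM in WT, 16.1% to 23.1% in Smarca1 KO and 16.2% to 20.6% in DKO, with replicate 1 the highest of its group in both mutants.

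**Figure D2:**
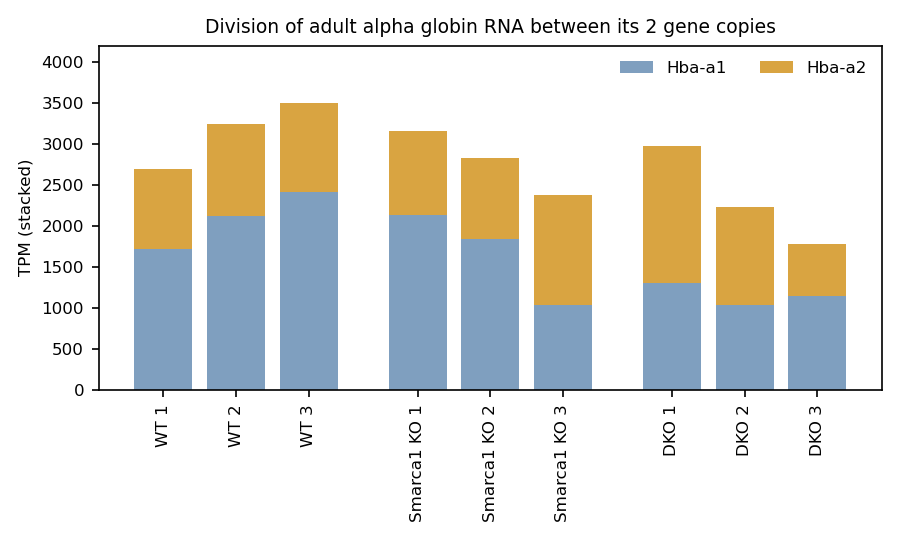
Stacked TPM (y axis, from 0) of Hba-a1 (blue) and Hba-a2 (yellow) in each of the 9 libraries (x axis), with no error bar since each bar is 1 library. Hba-a2 takes over 50% of the bar in Smarca1 KO replicate 3 and DKO replicates 1 and 2, and 30.96% to 36.1% in the other 6, while the height of the whole bar is lowest in DKO replicate 3.

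Hbb-bs was 287.7, 403.5 and 363.5 CPM in WT and 321.8, 253.6 and 236.5 CPM in DKO. DKO replicate 1 lay above WT replicate 1, and the log2 fold change was −0.38 (SE 0.139, edgeR adjusted p = 0.1007). Hbb-bt was 66.7, 88.7 and 93.9 CPM in WT and 97.9, 57.8 and 56.4 CPM in DKO, where replicate 1 was above every WT library. Its log2 fold change was −0.23 (SE 0.238, edgeR adjusted p = 0.545). The sum of the adult beta pair had a log2 fold change of −0.35 (SE 0.15, edgeR adjusted p = 0.147), and that of Hbb-y and Hbb-bh1 one of −0.78 (SE 0.414, edgeR adjusted p = 0.233). None of the 3 sums was called in any of the 3 comparisons, by edgeR or by DESeq2. At an unadjusted p under 0.05 in edgeR, 2 of them passed in DKO against WT, where 31% of all genes did. In DKO against Smarca1 KO 1 passed, against 18.4% of all genes, and in Smarca1 KO against WT 0, against 18.9%. The sums are built from genes already counted above.

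Alas2 was 9.63, 11.8 and 10.8 CPM in WT and 9.03, 7.77 and 5.71 CPM in DKO. The groups did not overlap, and the log2 fold change was −0.52 (SE 0.176, edgeR adjusted p = 0.0796). Slc4a1 was 5.02, 5.55 and 5.85 CPM in WT and 3.498, 5.15 and 2.24 CPM in DKO, where replicate 2 reached into the WT range (log2 fold change −0.60, SE 0.366, edgeR adjusted p = 0.2924).

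The count of calls moved with every library. Without Smarca1 KO replicate 1 or 3, 2 of the 9 were called (Hba-a1 and Hba-x, both lower), against 6.49% and 10.4% of all genes called lower. Without each of 6 others 0 were called. Calls over all genes also fell without any 1 WT replicate, DKO replicate 2 or DKO replicate 3. They were 281 to 421 lower genes there, against 1002 in the full fit. Without Smarca1 KO replicate 2 they were 1112. The remaining library is DKO replicate 1. Summed over 12 markers of meninges and mesenchyme, none of them at 0 in all libraries, the level was 366 TPM in DKO replicate 1 and 364.4 TPM in Smarca1 KO replicate 1, against 230.3 to 257.5 TPM in WT and 147.6 to 199.5 TPM in the other 4 mutant libraries. In the edgeR fit without DKO replicate 1, 2 of the 9 genes were called, both lower in DKO than in WT, against 6.38% of all genes called lower. They were Hbb-bs (log2 fold change −0.52, adjusted p = 0.0362) and Alas2 (−0.68, adjusted p = 0.0403), and the adult alpha sum (−0.71, adjusted p = 0.0312) and the adult beta sum (−0.52, adjusted p = 0.0344) were called with them. In an edgeR fit without replicate 1 of both mutants, added after the data were seen, 5 of the 9 were called lower, against 8.57% of all genes: Hba-a1 (−0.94), Hba-x (−1.47), Hbb-bs (−0.52), Hbb-bt (−0.54) and Alas2 (−0.68), with adjusted p from 0.0289 to 0.0389. Replicate 1 also had the highest globin share of counts in both mutant groups (0.1463% in DKO and 0.1635% in Smarca1 KO). Leaving it out therefore lowers the mean globin share of each mutant group, and these calls are no independent support for a fall. The part of meningeal tissue in these values was not tested. Over the 9 libraries, the log2 meninges and globin TPM sums had r = 0.61 (exact permutation p = 0.0815, adjusted p = 0.204 over 5 relations) and rho = 0.57 (exact permutation p = 0.121).

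In Smarca1 KO against WT, none of the 9 genes was called, and none had an unadjusted p under 0.05 in edgeR or an adjusted p under 0.05 in DESeq2. Over all genes 0.336% were called. The fold change was negative for 7 of the 9, against 47.2% of all genes. The median log2 fold change was −0.32, against 0.010 over all genes. Only Slc4a1 did not overlap between the groups (all lower, against 13.6% of all genes).

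In Smarca1 KO replicates 1 to 3, Hbb-y was 302.7, 217.1 and 88.4 CPM. Replicate 1 lay inside the WT range, replicate 2 below it, and replicate 3 was the lowest of all 9 libraries (log2 fold change −0.78, SE 0.413, edgeR adjusted p = 0.331). Hba-x followed the same order at 46.6, 24.1 and 12.2 CPM (log2 fold change −0.81, SE 0.424, edgeR adjusted p = 0.326), and so did Hbb-bh1 at 3.61, 3.28 and 0.838 CPM (−0.65, SE 0.500, edgeR adjusted p = 0.503). Slc4a1 was 4.86, 3.96 and 1.68 CPM (−0.63, SE 0.368, edgeR adjusted p = 0.372). The definitive genes were closer to WT. Hbb-bs was 340.8, 384.6 and 325.4 CPM, all inside the WT range (log2 fold change −0.005, SE 0.139, edgeR adjusted p = 0.990), and Hbb-bt was 120.5, 86.9 and 75.4 CPM (0.19, SE 0.238, edgeR adjusted p = 0.707). Hba-a1 was 594.7, 532.5 and 287 CPM (−0.32, SE 0.236, edgeR adjusted p = 0.478) and Hba-a2 201.8, 203.5 and 264.6 CPM (0.066, SE 0.282, edgeR adjusted p = 0.924). In replicate 3, Hba-a1 was the lowest and Hba-a2 the highest of the group. Alas2 was 8.24, 10.6 and 8.20 CPM, overlapping WT (−0.25, SE 0.175, edgeR adjusted p = 0.458).

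In DKO against Smarca1 KO, none of the 9 genes was called, while 4.39% of all genes were. With edgeR 1 of the 9 had an unadjusted p under 0.05, against 18.4% of all genes, and with DESeq2 none had an adjusted p under 0.05. That 1 gene was Hbb-bs, whose highest DKO library (321.8 CPM) lay just below the lowest Smarca1 KO library (325.4 CPM), with a log2 fold change of −0.37 (SE 0.139, edgeR adjusted p = 0.1864). It was also the only 1 of the 9 that did not overlap, against 10.7% of all genes that were all lower. The fold change was negative for 6 of the 9, against 48.8% of all genes. The median log2 fold change was −0.36, against 0.004 over all genes. The log2 fold change of Hba-a1 was −0.51 (SE 0.237, edgeR adjusted p = 0.2914). Without Smarca1 KO replicate 3, Hba-a1 was called (−0.77, edgeR adjusted p = 0.0207). Over all genes, 344 were called higher and 451 lower of 16049 in that setting. The library left out had the lowest Hba-a1 of its group (287 CPM), so leaving it out raises the group mean. The adult alpha sum was not called in that setting. Hbb-y had a log2 fold change of 0.008 (SE 0.412) and Slc4a1 one of 0.027 (SE 0.372), so that 0 lay well within 1 SE for both. The 3 comparisons share groups, so their values for a gene are not independent of each other.

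**Figure D3:**
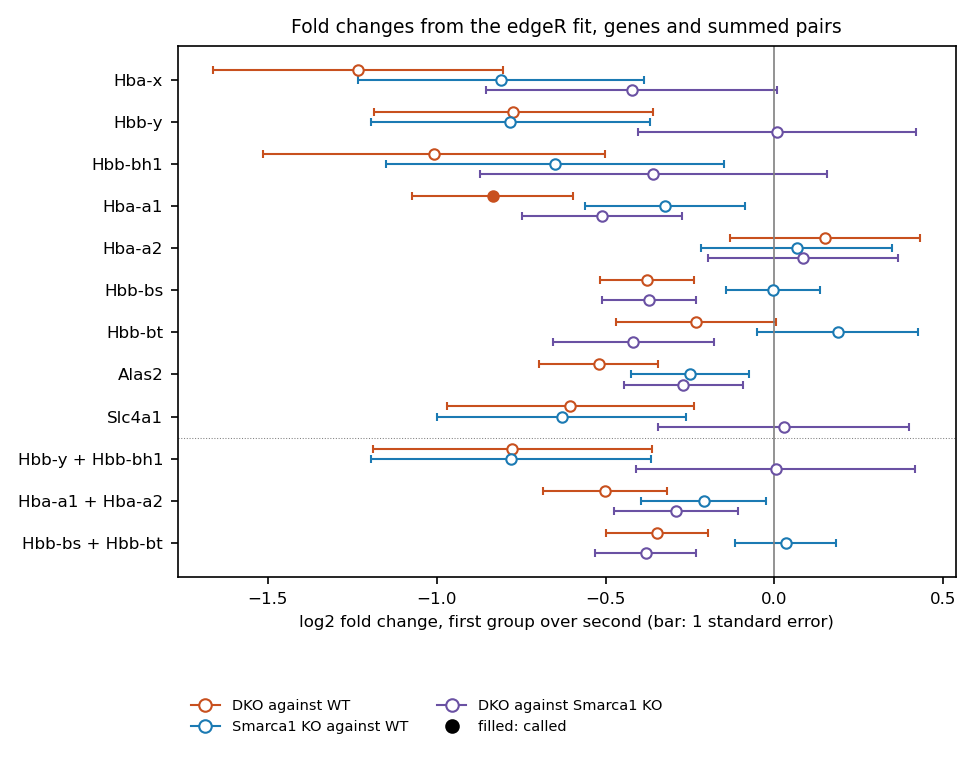
Log2 fold change (x axis) of each gene and of 3 summed pairs (y axis) in the 3 comparisons, from the edgeR fit over 9 libraries, with bars of ± 1 standard error; a filled marker is a call at an adjusted p under 0.05. The only filled marker is Hba-a1 in DKO against WT (−0.83), and the bars of the 3 embryonic genes are longer than those of Hbb-bs and Alas2.

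The embryonic share of the beta-like globin TPM, Hbb-y and Hbb-bh1 over all 4 beta-like genes, was 47.1%, 40.3% and 49.5% in WT (45.6% ± 4.80, SD, n = 3). It was 41.0%, 32.5% and 18.7% in Smarca1 KO (30.7% ± 11.2, SD, n = 3) and 40.9%, 42.6% and 28.97% in DKO (37.5% ± 7.44, SD, n = 3). WT libraries were the highest on average, and both mutant groups reached into the WT range. The share of Hba-x in the alpha-like TPM was 4.83%, 3.38% and 4.83% in WT (4.35% ± 0.836, SD, n = 3), 4.15%, 2.36% and 1.49% in Smarca1 KO (2.67% ± 1.36, SD, n = 3) and 2.55%, 2.98% and 1.964% in DKO (2.499% ± 0.510, SD, n = 3). Every DKO library was below every WT library, and Smarca1 KO overlapped both. Counting error was small beside these differences, with 95% Wilson intervals of the share of counts reaching at most 0.75 percentage points to either side for beta and 0.302 for alpha, for counting error only.

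Tested as log2 ratios of embryonic to definitive TPM, the difference between the 3 groups did not pass the test in the beta-like genes (exact permutation test of F over 1680 assignments, p = 0.1857) or in the alpha-like genes (p = 0.1536 in the same exact test). With each library left out in turn, the unadjusted exact p of the alpha-like genes was lowest, at 0.025, without Smarca1 KO replicate 1. That library had the highest Hba-x share of its group (4.15%), so leaving it out moves the group away from WT. The full range is in the closing section. Over the 6 ratios tested the smallest adjusted p was 0.464. In pairs of groups, 3 libraries against 3 cannot give a two-sided exact p below 0.1. That value was reached by 3 of the 18 pairs, each with an adjusted p of 0.6. The alpha ratio was lower in DKO than in WT by 0.83 on the log2 scale (−5.31 ± 0.311 against −4.48 ± 0.309, SD). The ratio of all alpha-like to all beta-like TPM was higher than in WT both in DKO (a difference of 0.082 on the log2 scale) and in Smarca1 KO (0.10). That ratio was 1.04, 1.02 and 1.02 in WT, 1.049, 1.058 and 1.198 in Smarca1 KO and 1.10, 1.059 and 1.10 in DKO, so alpha-like and beta-like RNA were near balance in every library, with Smarca1 KO replicate 3 the farthest from it.

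**Figure D4:**
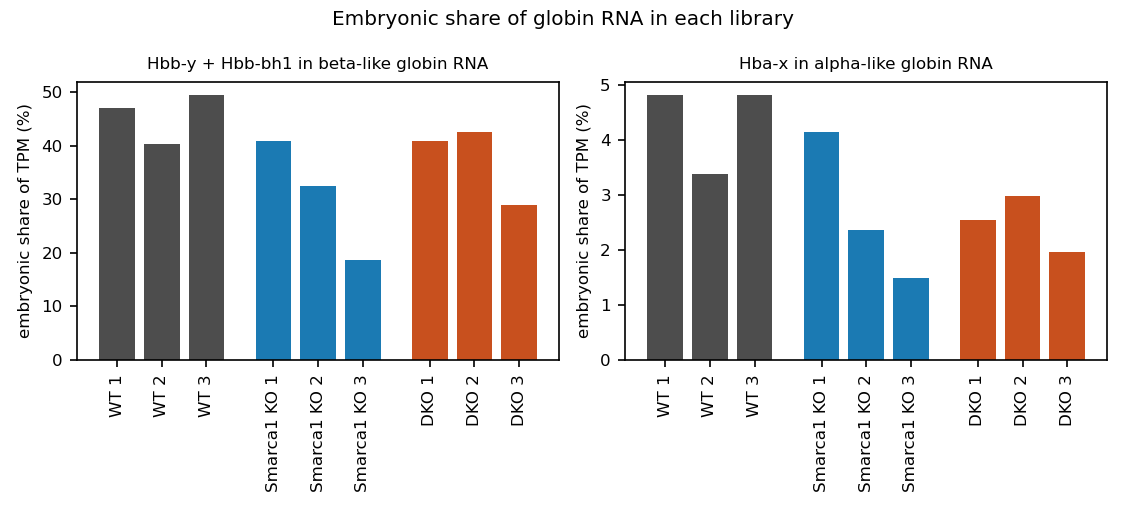
Embryonic share of globin TPM in percent (y axes, from 0, on different scales) in each of the 9 libraries (x axis), for the beta-like genes on the left and the alpha-like genes on the right; each bar is 1 library. The lowest bars of both panels are Smarca1 KO replicate 3 (18.7% and 1.49%) and DKO replicate 3 (28.97% and 1.964%), and WT replicates 1 and 3 are the highest.

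The 2 loci moved together from library to library. Over the 9 libraries, the log2 embryonic ratio of the beta-like genes and that of the alpha-like genes had r = 0.92 (exact permutation p = 0.000113, adjusted p = 0.000565 over 5 relations) and rho = 0.92 (exact permutation p = 0.00131, adjusted p = 0.00656). With the replicate 3 libraries of both mutants left out, which lie farthest from the median of the beta ratio, r was 0.82. After each group's mean was subtracted r was 0.96, so the relation held within groups. The ratios share no gene, but each pair of values comes from 1 library. The beta ratio and the level of definitive globin RNA had r = 0.41 (exact permutation p = 0.27) and −0.020 without the same 2 libraries. Relations of the globin sum with endothelial (r = 0.52, exact permutation p = 0.148) and with platelet markers (r = 0.28, exact permutation p = 0.473) were weaker, and after adjustment none of these passed 0.05.

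**Figure D5:**
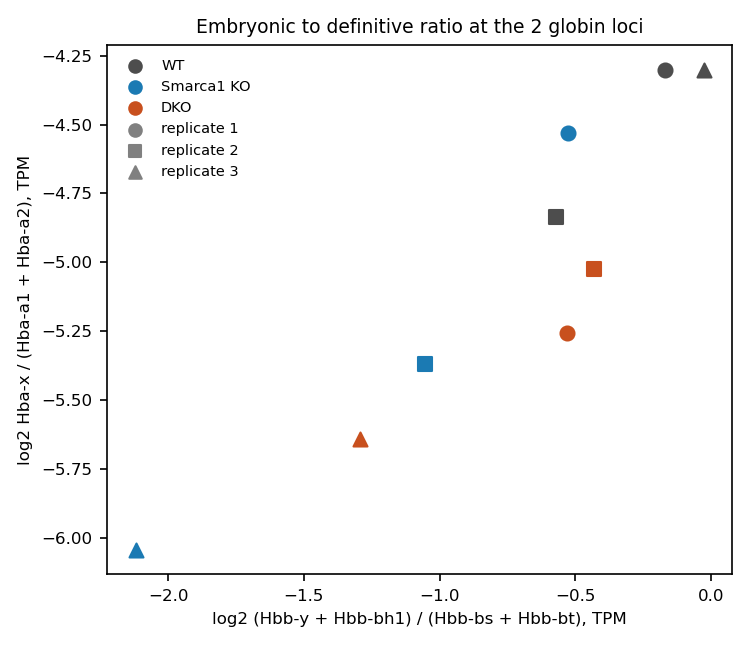
Log2 ratio of Hba-x to adult alpha TPM (y axis) against the log2 ratio of Hbb-y and Hbb-bh1 to adult beta TPM (x axis), 1 point per library, coloured by group and shaped by replicate. The points run from Smarca1 KO replicate 3 (−2.12 and −6.05) to WT replicate 3 (−0.027 and −4.30), r = 0.92 over the 9 libraries.

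Within the embryonic class, Hbb-bh1 was 0.0114 to 0.0134 of Hbb-y in TPM in WT, 0.009985 to 0.0159 in Smarca1 KO and 0.00880 to 0.0135 in DKO (exact permutation p = 0.461 for the log2 ratio). The ranges overlapped in all pairs of groups. The log2 ratio of Alas2 to the globin sum averaged −9.26 in WT, −9.29 in Smarca1 KO and −9.29 in DKO (exact permutation p = 0.996). The log2 ratio of Slc4a1 to the globin sum averaged −11.52 ± 0.098 (SD) in WT, −12.02 ± 0.576 in Smarca1 KO and −11.68 ± 0.519 in DKO (exact permutation p = 0.496), with a wider spread in the mutants.

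The embryonic genes varied more within groups than the definitive ones. The within-group SD of log2 CPM was 0.835 for Hbb-bh1, 0.684 for Hba-x and 0.672 for Hbb-y, which was larger than in 97.3% to 98.5% of all genes tested, and 0.576 for Slc4a1. It was 0.448 for Hba-a2, 0.376 for Hba-a1, 0.361 for Hbb-bt, 0.245 for Alas2 and 0.210 for Hbb-bs, against a median of 0.116 over all genes tested. The mean of the 9 genes, each centred on its own mean log2 CPM, was 0.17, 0.36 and 0.55 in WT, 0.31, 0.10 and −0.65 in Smarca1 KO and 0.08, −0.13 and −0.79 in DKO. Replicate 3 of both mutant groups stood lowest.

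Likeness of pattern was measured by Pearson's r of log2 CPM over the 9 libraries, as a description with no test. The embryonic genes and Slc4a1 were most like that mean (r of 0.96 for Hbb-y, Hbb-bh1 and Hba-x and 0.89 for Slc4a1), and Hba-a2 least (0.31). The mean includes each gene itself and is not scaled by spread, so genes with a large spread weigh most in it. The embryonic genes and Slc4a1 had the largest within-group SD of the members, so their high r is in part built in. Slc4a1 was closer to Hbb-bh1 (0.96), Hbb-y (0.94) and Hba-x (0.89) than to Hbb-bs (0.33), while Alas2 was closest to Hbb-bs (0.86). Hba-a1 and Hba-a2 had r = −0.09 with each other. Among all other genes tested, the 10 most like the mean were Six5 (0.99), Mob1a (0.99), Gmps, Prdx4, Trip6, Mtfr1, Reep3, Lpar6, Msrb3 and Crabp2 (0.96). None of them is in the 12 gene lists used here. They were picked for the highest r among all genes tested, over only 9 libraries, so their high r is in part built in. Between their lowest and highest library their log2 CPM spanned 0.25 (Gmps) to 1.33 (Crabp2).

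Of 45 other genes tested from 5 lists of the red cell programme, 4 rose and 3 fell in DKO against WT, or 15.6%, against 12% of all genes. Of 11 genes of haem synthesis and iron supply, 1 rose and 1 fell in DKO against WT, with a list median log2 fold change of −0.028. Cpox, an enzyme of the haem pathway, rose (0.29, SE 0.072, edgeR adjusted p = 0.0300), and Abcb10, a mitochondrial transporter that red cell precursors need for haem, fell (−0.36, SE 0.074, edgeR adjusted p = 0.0174). Abcb10 also fell in DKO against Smarca1 KO (−0.55, SE 0.074, edgeR adjusted p = 0.00491), from 29.9 ± 2.22 to 20.5 ± 1.42 CPM. The transferrin receptor gene Tfrc had a log2 fold change of −0.21 in Smarca1 KO against WT (edgeR adjusted p = 0.206).

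Of 16 red cell membrane genes 12 were tested, and 2 rose in DKO against WT, with a list median of 0.071. They were Sptb, which encodes beta spectrin (0.87, SE 0.135, edgeR adjusted p = 0.00626), and Dmtn, which encodes the actin-bundling protein dematin (0.67, SE 0.158, edgeR adjusted p = 0.0275). Both genes are also expressed in neurons, and their levels were 19.6 ± 2.72 and 33.1 ± 3.21 CPM in DKO. In DKO against Smarca1 KO and in Smarca1 KO against WT no gene of the membrane list was called by edgeR. At an unadjusted p under 0.05 there were 3 and 4, and by DESeq2 1 and 0.

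Of 8 erythroid transcription factors 5 were tested, and 1 fell in DKO against WT. It was Ldb1, a cofactor that links GATA1 complexes (−0.13, SE 0.037, edgeR adjusted p = 0.0462), at 371.6 ± 4.16 CPM in DKO and 407.9 ± 5.09 CPM in WT. Klf1, the main activator of adult beta globin, was at 4 to 19 counts per library, with a log2 fold change of 0.75 (SE 0.525, edgeR adjusted p = 0.362). Of 7 regulators of globin switching, 1 fell, the RNA-binding protein gene Igf2bp1 (−0.45, SE 0.103, edgeR adjusted p = 0.0247). Lin28b, which like Igf2bp1 is known to favour fetal globin in human red cells, had a log2 fold change of 0.46 (SE 0.149, edgeR adjusted p = 0.0712). Bcl11a, a repressor of embryonic and fetal globin genes, had one of −0.16 (SE 0.071, edgeR adjusted p = 0.171). It stood at 141.5 to 191.7 TPM, far above Klf1 at 0.204 to 0.855 TPM. Bcl11a, Ldb1 and Igf2bp1 are also known to be expressed in the developing cortex.

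Of 14 genes of erythroid maturation, 13 were in the tables and 10 were tested. Ube2l6, a ubiquitin-like conjugating enzyme, rose in DKO against WT (0.67, SE 0.161, edgeR adjusted p = 0.0296) and against Smarca1 KO (0.71, SE 0.162, edgeR adjusted p = 0.0412). Bpgm, which makes 2,3-bisphosphoglycerate in red cells, rose in DKO against Smarca1 KO (0.23, SE 0.053, edgeR adjusted p = 0.0457). Tspo2, an erythroid membrane protein gene, fell in that comparison from 0.841 ± 0.289 to 0.0532 ± 0.0740 CPM (edgeR adjusted p = 0.0175), and WT stood at 0.0474 ± 0.0414 CPM. Its counts were too few for a stable fold. Of 7 other globin genes 2 were tested. Cytoglobin (Cygb), an oxygen-binding globin of fibroblast-like cells, fell in DKO against WT (−0.59, SE 0.145, edgeR adjusted p = 0.0309) and against Smarca1 KO (−0.79, SE 0.145, edgeR adjusted p = 0.0165). Neuroglobin (Ngb) was under 1 CPM. In Smarca1 KO against WT edgeR called none of the 111 genes tested from the 12 lists, while 3 were called by DESeq2 and 23 passed 0.05 before adjustment in edgeR.

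Markers of other cells gave these values beside the globin results. Over all genes, edgeR called 12% in DKO against WT, 4.39% in DKO against Smarca1 KO and 0.336% in Smarca1 KO against WT. At an unadjusted p under 0.05 the shares were 31%, 18.4% and 18.9%. Of 15 endothelial and mural genes none was called in any comparison by edgeR or DESeq2, and 0 to 1 of them had an unadjusted p under 0.05. Their summed level was 242.9 to 266.9 TPM in WT, 216.1 to 321.8 TPM in Smarca1 KO and 221.9 to 284.1 TPM in DKO. The gene with the smallest p in DKO against WT was Kcnj8, a pericyte channel (0.38, edgeR adjusted p = 0.199). Of 10 megakaryocyte and platelet genes 6 were tested and 1 fell in DKO against WT, Clec1b, a platelet receptor (−1.11, SE 0.232, edgeR adjusted p = 0.0186). Of 12 microglia and macrophage genes 4 rose in DKO against WT, among them the fractalkine receptor Cx3cr1 (0.77, SE 0.102, edgeR adjusted p = 0.00339) and the complement gene C1qa (1.15, SE 0.181, edgeR adjusted p = 0.00637). Their summed level was 61.1 to 64.3 TPM in WT, 62.9 to 83.7 TPM in Smarca1 KO and 82.3 to 106.5 TPM in DKO. Of 12 meningeal genes edgeR called none in DKO against WT (2 at an unadjusted p under 0.05, 1 by DESeq2), and 1, Cemip, fell in DKO against Smarca1 KO (−0.66, SE 0.146, edgeR adjusted p = 0.0376). Of 9 hypoxia genes tested, Ddit4 fell (−0.22, edgeR adjusted p = 0.0237) and Ankrd37 rose (0.73, edgeR adjusted p = 0.0390) in DKO against WT. Of 10 genes of cortical tissue 2 fell in DKO against WT, among them Emx1 (−0.62, edgeR adjusted p = 0.00335). In that comparison 7 of the 10 had an unadjusted p under 0.05 in edgeR and 6 were called by DESeq2. The list median log2 fold change was −0.18. The cortical list summed to 2840 to 3382 TPM over all libraries. None of these lists had a marker at 0 in all libraries, and their part in the globin values was not tested.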

How the data were processed

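The authors ran Salmon 1.4.0 on each library. The submitters' processing notes give this version and list mm10 and DESeq2 with no role. Per the file headers, the deposited tables hold estimated counts (not normalised), TPM and effective lengths for each transcript. The Salmon index and strand setting are not stated. The 116546 transcripts were matched to GENCODE M21 (115977 matched; the other 569 held 0.104% to 0.116% of reads), summed to 35498 genes and rounded.

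The 9 genes and the 12 gene lists were chosen with earlier results of these data known. The test was that of edgeR 4.0.16 in R 4.3.3, with limma 3.58.1: all 9 libraries, TMM (factors 0.991 to 1.02), filterByExpr, the quasi-likelihood F test and Benjamini-Hochberg adjustment over 15773 genes, called under 0.05. CPM are TMM-scaled. The SE is the fold change over the square root of F. Sums replaced their genes in a second fit. Ratios of TPM were tested by exact permutation (SciPy 1.17.1) and adjusted over 6 tests, 18 pairs or 5 relations. From each list, up to 3 called genes per comparison with the smallest p were named, or the gene with the smallest p, and a few others (Klf1, Bcl11a, Lin28b) were chosen after their values were seen. A gene that this rule names is not reported here. DESeq2 1.42.0 and the other alternatives are in the closing section.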

Additional observations from a re-analysis of the deposited data

How the results depend on the processing

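In DKO against WT, 1 of the 9 genes was called. The count was 3 with DESeq2 (Hba-a1, Hbb-bs and Alas2), 2 when only the 2 groups were fitted (Hba-a1 and Hba-x), 0 with effective-length offsets, 0 with the replicate block and 0 to 2 when each library was left out in turn. It was 5, with 2 of the 3 sums called, without replicate 1 of Smarca1 KO and DKO together, a setting chosen after seeing the data. RLE scaling, TMM without the 9 genes and no filter on low counts left it at 1. Of the sums, 0 to 2 were called when a library was left out. In DKO against Smarca1 KO 0 to 1 of the 9 were called when a library was left out, and in Smarca1 KO against WT 0 in every setting. With all genes counted, calls in DKO against WT were 885 higher and 1002 lower among 15773 tested. They were 1345 and 1482 of 15444 with DESeq2, and 1711 and 1732 of 15603 with only the 2 groups fitted. Without replicate 1 of both mutants they were 1439 and 1358 of 15852, and without WT replicate 1 they were 169 and 281 of 15963. DESeq2, the fit of only 2 groups and the fit without replicate 1 of both mutants thus also called more of all genes.

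The p of the alpha-like embryonic ratio was 0.025 to 0.339 when a library was left out, lowest without Smarca1 KO replicate 1, and that of the alpha-like to beta-like ratio 0.025 to 0.471, lowest without Smarca1 KO replicate 3. These are exact permutation p-values, not adjusted. These log2 fold changes changed sign when a library was left out: in DKO against Smarca1 KO, Hba-a2 (−0.28 to 0.39), Hba-x (−0.78 to 0.19), Hbb-y (−0.35 to 0.42), Slc4a1 (−0.31 to 0.35) and the sum of Hbb-y and Hbb-bh1 (−0.36 to 0.41); in DKO against WT, Hba-a2 (−0.21 to 0.45); in Smarca1 KO against WT, Hba-a2 (−0.074 to 0.13), Hbb-bs (−0.13 to 0.10), Hbb-bt (−0.033 to 0.32) and the sum of Hbb-bs and Hbb-bt (−0.097 to 0.13). With effective-length offsets Hbb-y (−0.018), Slc4a1 (−0.037) and the sum of Hbb-y and Hbb-bh1 (−0.022) changed sign in DKO against Smarca1 KO, and Hbb-bs (0.002) in Smarca1 KO against WT. Without replicate 1 of both mutants, Hba-a2 was −0.35 against Smarca1 KO and −0.21 against WT in DKO, and Hbb-bs was 0.014 and Hbb-bt −0.032 in Smarca1 KO against WT. The cause was not tested.

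No clear pairing by replicate number was seen: correlations of deviations between same-numbered libraries ran from −0.18 to 0.506, and not every library correlated best with its own number. The highest of any pair, 0.506, was between Smarca1 KO replicate 1 and DKO replicate 1. Whether a number marks something shared by these libraries was not tested. With the replicate block the adjusted p of Hba-a1 in DKO against WT was 0.0638 (edgeR), and none of the 9 genes was called in any comparison. The exact permutation p of the ratios within blocks was 0.1111 for the embryonic beta-like and 0.1667 for the embryonic alpha-like genes. Depth limits Hbb-bh1 (23 to 166 counts) and Slc4a1 (46 to 196 counts) most.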

Other observations

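Alas2 was counted on 2 coding transcripts, and the shorter one (1892 bases, against 2037) took 5.7% to 63.8% of the estimated counts of the gene from library to library, highest in WT replicate 2. The gene total, 225 to 376 counts, varied less than this division. Hba-x and Hba-a1 were each counted almost wholly on 1 transcript, with 98% to 100% and 98.8% to 100% of their estimated counts.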
